A study of Mus musculus with 21 samples.

Results

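Genes that take part in the choice of a muscle fibre between glucose and fatty acid as fuel were followed by RNA-seq in mouse quadriceps after running. They are pyruvate dehydrogenase kinases (Pdk2 and Pdk4) and targets of the PPAR nuclear receptors (Angptl4, Ucp3, Cpt1b, Plin2, Cd36, Lpl, Fabp3 and Acadm), chosen by symbol, and all 10 were found among the 53738 gene symbols of the table. All 10 passed the filter on low values, set at a mean of 1 TPM (a level per transcript length that sums to the same total in every library), which left 11819 symbols to test.

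The tissue was whole quadriceps muscle of adult male wild-type C57/Bl6 mice. Sedentary mice did no exercise. Untrained mice ran 1 exhaustive treadmill bout without prior training, trained mice ran the same kind of bout after 12 weeks of voluntary wheel running, and both were killed straight after it (0 h) or 6 h or 72 h later, which gives 7 groups of 3 libraries. No group was trained and left unexercised, so against sedentary muscle the training and the bout cannot be told apart in the trained groups, and the trained and untrained groups at 1 time point give the comparison that bears on training. The labels number the replicates but do not say more of how they were taken, and p-values measure only the spread between these libraries.

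At 0 h, replicate 1 of the untrained group and replicate 1 of the trained group held identical values for all 53738 symbols. The table therefore holds 20 distinct libraries of 21, and every 0 h result below rests on 2 libraries that belong to 1 group alone plus 1 that both share. The defining muscle genes were high everywhere, the summed level of 6 of them (Acta1, Ckm, Des, Ttn, Mb and Tnni2) lying between 40229 and 53478 TPM. Genes of the mitochondrial genome took 37.7% to 48.0% of all TPM. In whole muscle, fewer cells of a type and less RNA per cell cannot be told apart.

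Pyruvate dehydrogenase admits pyruvate from glycolysis into the mitochondrial citric acid cycle, and the 4 pyruvate dehydrogenase kinases switch it off by phosphorylation. PPARalpha and PPARdelta are nuclear receptors that bind fatty acids, pair with RXR and act on genes for fatty acid uptake, storage and oxidation, and in muscle they are known for their part in fasting and endurance exercise. Pdk4 is a target of these receptors, while Pdk2 is the widely expressed kinase of resting muscle.

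PPAR and RXR pairs are known to bind a direct repeat of the half-site AGGTCA with 1 base between the copies. Promoter sequence of 7 of the 10 genes was found in the RefSeq promoter table (build GRCm38.p6), as 8 start sites, since Pdk2 has a pair of them. The stretches of 3 genes, each ending before the annotated transcripts that begin at that start, are given below. The Cd36 stretch lies at 1 of several annotated starts of the gene, with others further upstream. The stretches shown are those of Pdk4 and Ucp3 because these genes varied together across the libraries, and that of Cd36 because it differed between trained and untrained muscle. Capitals mark an exact half-site on either strand (AGGTCA, or TGACCT when it lies on the other strand). The stretches are chr6:5496340-5496528 (minus strand) for Pdk4, chr7:100472741-100472928 (plus strand) for Ucp3 and chr5:17836078-17836146 (minus strand) for Cd36.

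Pdk4: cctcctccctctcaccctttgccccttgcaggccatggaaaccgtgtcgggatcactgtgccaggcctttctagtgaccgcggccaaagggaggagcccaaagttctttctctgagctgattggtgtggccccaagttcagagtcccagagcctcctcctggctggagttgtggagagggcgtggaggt

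Ucp3: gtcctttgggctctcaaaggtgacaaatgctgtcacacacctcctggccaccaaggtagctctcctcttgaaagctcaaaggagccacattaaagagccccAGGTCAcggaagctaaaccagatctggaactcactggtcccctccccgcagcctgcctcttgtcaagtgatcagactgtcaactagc

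Cd36: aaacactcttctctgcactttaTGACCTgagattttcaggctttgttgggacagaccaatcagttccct

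In the 250 bases before each RefSeq start, both strands searched, an exact half-site was found 2 times for Ucp3 and 1 time each for Plin2, Cd36 and Acadm. The windows of Pdk2, Pdk4 and Fabp3 did not hold these letters. Of 32851 promoters of the same length, 14% hold at least 1 half-site. The direct repeat, with at most 2 mismatches over its 12 fixed letters, was found for Ucp3, Plin2 and Cd36, against 3.24% of all promoters, and this search overlaps the first where a repeat holds an exact half-site. The Ucp3 match begins 51 bases before the start and the Cd36 match 63 bases before it, both outside the stretches printed above. A forkhead site (GTAAACA, in 3.17% of promoters) and an oestrogen-related receptor site (TCAAGGTCA, in 0.387%) were found in none of the 8 windows. A match is a description of letters, not a measured site, and a window without one says nothing of a site elsewhere.

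The 10 genes lie on 9 chromosomes, and all are protein-coding. On GRCm39, the build of the table, Pdk4 spans 5483097 to 5496339 on chromosome 6, Ucp3 100122136 to 100135976 on chromosome 7, Cd36 17986432 to 18094067 on chromosome 5 and Pdk2 94914929 to 94932242 on chromosome 11. Pdk2 overlaps Samd14 on the opposite strand, and Ucp3, Cd36 and Lpl overlap non-coding genes there, while Pdk4, Angptl4, Plin2 and Acadm overlap no annotated gene. The library kit does not mark strand, so reads in an overlap cannot be assigned by it.

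Levels differed widely between the 10 genes. Averaged over all libraries, Fabp3 stood highest at 471 TPM, Acadm followed at 190, Pdk4 at 171 and Pdk2 at 132 TPM, and Angptl4 was lowest at 2.41 TPM. The scatter between libraries of 1 group differed as widely. The within-group SD on the log2(TPM + 0.5) scale was 0.064 for Pdk2, with 1.5% of tested genes below it, and 0.767 for Pdk4, 0.949 for Angptl4 and 0.473 for Ucp3, larger than in 92.7%, 93.4% and 89.5% of them. The other 6 genes lay between 0.117 (Cd36) and 0.251 (Fabp3), around the median of 0.150 for tested genes. Differences of Pdk4, Angptl4 and Ucp3 were thus measured with far less precision than those of the other members.

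**Figure D1:**
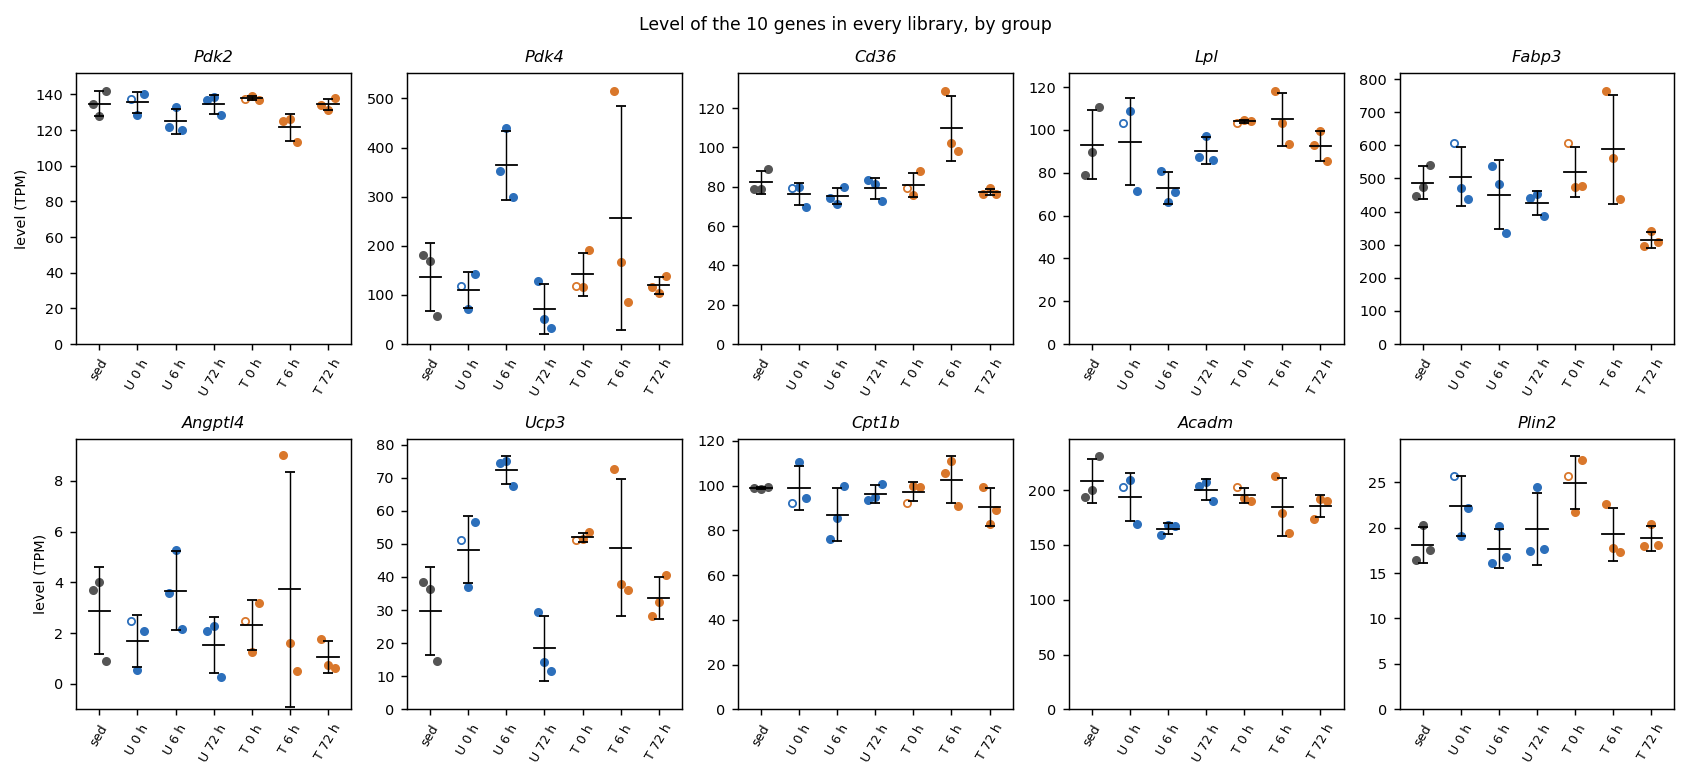
Level in TPM (linear axes) of each of the 10 genes in every library of the 7 groups: sed is sedentary, U untrained, T trained, with hours after the bout. Points are libraries, lines are the mean and SD of 3, and open circles mark the library whose column is shared by both 0 h groups. The means of Pdk4 and Ucp3 are highest in untrained muscle at 6 h and that of Cd36 in trained muscle at 6 h. The highest single library of Pdk4 is trained 6 h replicate 1. Pdk2 keeps nearly 1 level. For Angptl4 in trained muscle at 6 h the SD is larger than the mean.

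The groups were compared in 1 limma model of all 7, fitted to log2(TPM + 0.5), and p was adjusted over the 11819 tested genes (Benjamini-Hochberg). Calls needed an adjusted p under 0.05 together with a change of 1.5-fold or more, which is 0.585 on the log2 scale. Of the 10 genes 1 was called, Ucp3 in untrained muscle at 6 h, where 4.42% of all tested genes were called. In the other 5 comparisons with sedentary muscle 0 of the 10 were called, with 3.59% of all tested genes called in untrained and 3.74% in trained muscle at 0 h, 3.85% in trained muscle at 6 h, and 0.00846% in untrained and 0.169% in trained muscle at 72 h. Between trained and untrained muscle 0 of the 10 were called at any time, with 0% of all tested genes called at 0 h, 2.01% at 6 h and 0.245% at 72 h. With 10 genes, 1 call beside a background of 4.42% and 0 calls beside the others is close to the background. The median difference of the 10 at 6 h was −0.12 on the log2 scale in untrained and 0.13 in trained muscle, against 0.01 and −0.01 over all tested genes.

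Of the kinases, Pdk4 varied most. In sedentary muscle it stood at 181, 170 and 56.6 TPM in replicates 1 to 3. In untrained muscle it stood at 117, 71.3 and 142 TPM at 0 h, at 352, 440 and 299 TPM at 6 h, and at 129, 51.5 and 32.3 TPM at 72 h. All 3 untrained libraries at 6 h lay above all 3 sedentary libraries, and those at 0 h and 72 h overlapped them. The difference at 6 h was 1.57 on the log2 scale (SE 0.59; 95% interval 0.32 to 2.83; a fold of 2.98), with an adjusted p of 0.117 in limma, so Pdk4 did not pass the test. Without sedentary replicate 3, the lowest of its group, it was 1.03 (adjusted p = 0.366).

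In trained muscle Pdk4 stood at 117, 117 and 192 TPM at 0 h, at 515, 167 and 86.6 TPM at 6 h, and at 117, 103 and 138 TPM at 72 h. The 6 h libraries spanned the widest range of any group, from within the sedentary values to the highest level of the series. The difference from sedentary muscle at 6 h was 0.70 (95% interval −0.56 to 1.95; adjusted p = 0.517 in limma), and 0.00 without trained 6 h replicate 1. Trained minus untrained muscle gave −0.87 at 6 h (−2.13 to 0.38; adjusted p = 0.469) and 0.98 at 72 h (−0.27 to 2.23; adjusted p = 0.464), neither past the threshold. These intervals are wide enough to hold no difference as well as one of more than 2-fold.

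Pdk2 was the steadiest gene of the 10. Its lowest library stood at 113 TPM (trained 6 h replicate 3) and its highest at 142 TPM (sedentary replicate 3). Both 6 h groups had the lowest means, 125 ± 7.15 TPM (untrained) and 122 ± 7.34 TPM (trained; SD, n = 3), against 135 ± 7.01 TPM in sedentary muscle. The 3 trained 6 h libraries lay below all sedentary ones, by −0.15 on the log2 scale (95% interval −0.27 to −0.02), which did not pass (adjusted p = 0.125). Over the 20 distinct libraries the level of Pdk4 ranged from below to well above that of Pdk2: in untrained muscle at 6 h Pdk4 exceeded Pdk2 in all 3 libraries, and at 72 h it stood below it in all 3.

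The other genes that set the activity of pyruvate dehydrogenase were described as a list of 12 (the kinases Pdk1 and Pdk3, the phosphatases Pdp1, Pdp2 and Pdpr, the enzyme's subunits and the pyruvate carriers Mpc1 and Mpc2), of which 10 were tested. In the 9 comparisons 0 of these 10 were called. In untrained muscle at 6 h 9 of 10 had a negative difference, with a median of −0.17 against 0.01 over all tested genes, and in trained against untrained muscle at 6 h 10 of 10 had a positive one, with a median of 0.19 against −0.04. Pdk1, a kinase that is also known to respond to low oxygen, singled out after its values were seen, stood at 8.17 ± 0.22 TPM 6 h after the bout in untrained mice, against 10.4 ± 0.55 TPM in trained and 10.2 ± 0.87 TPM in sedentary mice (SD, n = 3 each). Pdk3 averaged under 1 TPM and was not tested.

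**Figure D2:**
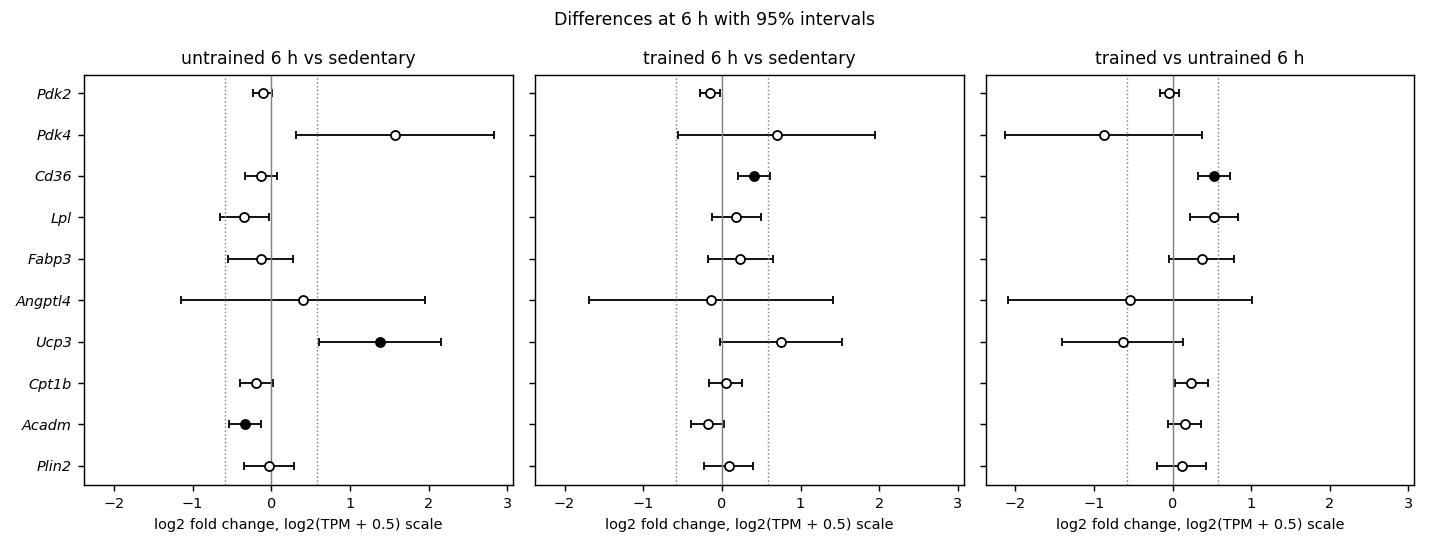
Differences of the 10 genes at 6 h (points) with 95% intervals (bars) from limma on the log2(TPM + 0.5) scale: untrained minus sedentary, trained minus sedentary, and trained minus untrained. Filled points have an adjusted p below 0.05 and dotted lines mark a change of 1.5-fold; Ucp3 in untrained muscle is the 1 filled point beyond them, and the bars of Pdk4, Angptl4 and Ucp3 are the longest.

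Ucp3 encodes a mitochondrial uncoupling protein of skeletal muscle whose mRNA is known to rise when fatty acid supply is high. It stood at 38.5, 36.2 and 14.5 TPM in sedentary muscle. In untrained muscle it stood at 51.0, 37.0 and 56.6 TPM at 0 h, at 74.5, 74.9 and 67.5 TPM at 6 h, and at 29.5, 14.2 and 11.5 TPM at 72 h. The 6 h libraries lay above all libraries of sedentary muscle, close together, and above all of the next group in the order of means, trained muscle at 0 h. Ucp3 rose 2.61-fold at 6 h (log2 1.39, SE 0.37, 95% interval 0.61 to 2.16, adjusted p = 0.0243 in limma). The call did not hold in each alternative: the adjusted p was 0.107 without sedentary replicate 3, where the difference fell to 0.94 on the log2 scale, 0.0719 without untrained 6 h replicate 2 and 0.056 without replicate 3, and 0.174 in a model of these groups alone.

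In trained muscle Ucp3 stood at 51.0, 51.4 and 53.5 TPM at 0 h, at 72.7, 37.8 and 36.1 TPM at 6 h, and at 28.2, 32.4 and 40.7 TPM at 72 h. The 0 h libraries lay above all sedentary ones, by 0.91 on the log2 scale (95% interval 0.14 to 1.69), without passing the test (adjusted p = 0.122), and the mean was 52.4 TPM without the shared library and 52.0 TPM with it. At 6 h 1 library reached the untrained level, and the others lay within the sedentary range. Trained minus untrained muscle was −0.64 at 6 h (−1.41 to 0.14; adjusted p = 0.381) and 0.96 at 72 h (0.18 to 1.73; adjusted p = 0.236), so a difference of Ucp3 by training was not shown at either time.

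Angptl4 encodes a secreted inhibitor of lipoprotein lipase and was the least abundant of the 10. It stood at 3.71, 4.01 and 0.91 TPM in sedentary muscle, at 3.59, 5.28 and 2.16 TPM in untrained muscle at 6 h and at 9.04, 1.61 and 0.51 TPM in trained muscle at 6 h. Every exercised group overlapped the sedentary one, with means from 1.04 ± 0.63 TPM (trained, 72 h) to 3.72 ± 4.64 TPM (trained, 6 h; SD, n = 3). The log2 difference from sedentary muscle lay between −1.03 (trained 72 h; 95% interval −2.58 to 0.52) and 0.41 (untrained 6 h; −1.14 to 1.96), and 0 of 9 comparisons passed. At this level the added 0.5 TPM shrinks the log2 differences.

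Pdk4, Ucp3 and Angptl4 varied together from library to library. Over the 20 distinct libraries, on the log2(TPM + 0.5) scale, Pearson's r was 0.88 between Pdk4 and Ucp3 (Spearman's rho 0.83), 0.79 between Pdk4 and Angptl4 (0.78) and 0.57 between Angptl4 and Ucp3 (0.56). Taken as deviations from the group means, so that differences between groups are removed, r was 0.92, 0.88 and 0.72. Without the 2 libraries farthest from the median of the first gene, r was 0.84, 0.66 and 0.38, the last pair weakening most. In 7 of 7 groups the replicate with the most Pdk4 had the most Ucp3 too, and in 5 of 7 the replicate with the least of 1 had the least of the other. With Angptl4 included, 1 replicate was highest for all 3 genes in 3 of 7 groups and lowest for all 3 in 5 of 7. For Pdk4 and Pdk2 r was −0.26, and 0.34 as deviations from the group means. Other members varied together too. Lpl and Acadm had an r of 0.66 and Cd36 and Lpl 0.62, both above Angptl4 and Ucp3. As deviations, Lpl and Acadm (0.78) and Cd36 and Acadm (0.81) exceeded Angptl4 and Ucp3, and Cd36 and Lpl (0.67) did not. Without removing group differences, Cd36 and Acadm had 0.29. The pairs of Pdk4 with Ucp3 and with Angptl4 had the highest r among the members both ways. The points share libraries, groups and the scaling of TPM to 1 total, and no test was made of these values.

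**Figure D3:**
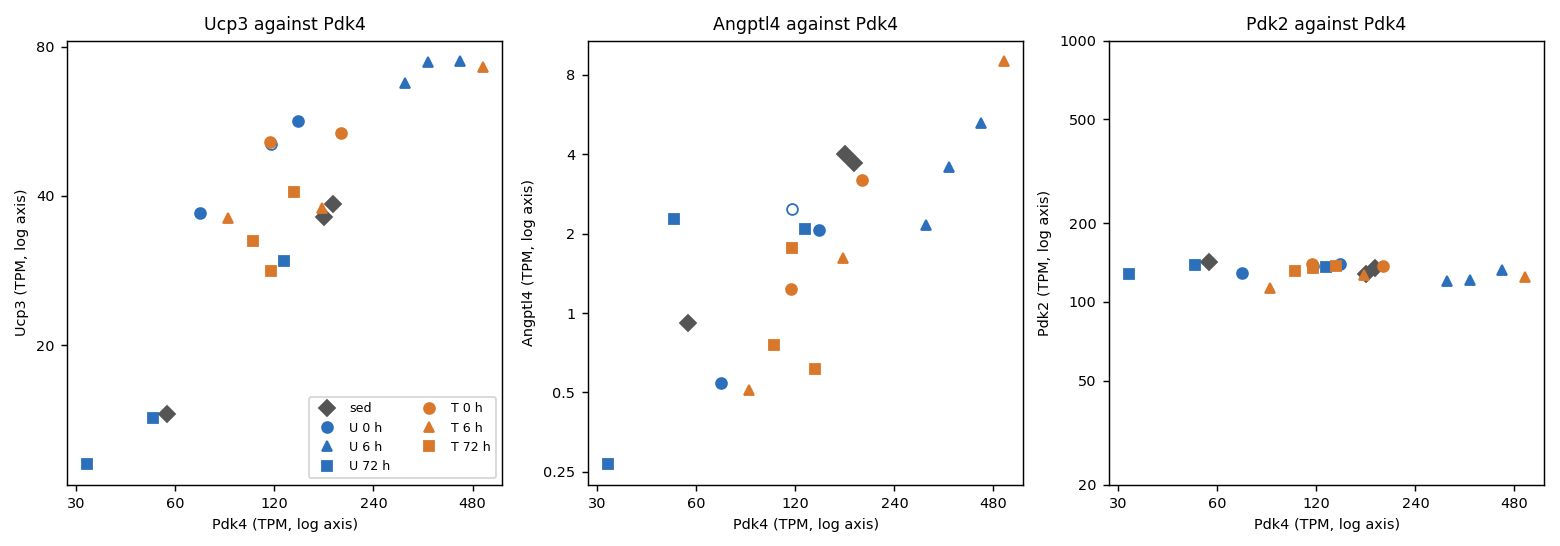
Ucp3, Angptl4 and Pdk2 against Pdk4 (TPM, log axes) in the 20 distinct libraries; symbols give the group, and the open circle is the library shared by both 0 h groups (in the first panel it lies under trained 0 h replicate 2). Ucp3 and Angptl4 climb with Pdk4 over its range from 32.3 to 515 TPM, with r of 0.88 and 0.79, while Pdk2 stays between 113 and 142 TPM.

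In trained muscle at 6 h and untrained muscle at 72 h single replicates held the extremes of most of the 10 genes, and elsewhere these were more spread. Sedentary replicate 3 had the lowest level of its group for Pdk4, Ucp3 and Angptl4, and the highest for 6 of the 10 genes. Trained 6 h replicate 1 had the highest level of its group for 8 of the 10 genes, all but Pdk2 and Cpt1b, and replicate 3 of that group the lowest for 10 of 10. Untrained 72 h replicate 3 had the lowest of its group for 8 of 10. In trained 6 h replicate 1 the summed level of the 7 slow-fibre genes (Myh7, Myl2, Myl3, Tnnt1, Tnnc1, Tnni1 and Tpm3) was 1184 TPM and that of the 6 adipocyte genes (Adipoq, Plin1, Cidec, Lep, Retn and Cfd) 92.6 TPM, both the highest of its group. In sedentary replicate 3 these sums, 1084 and 42.3 TPM, were likewise the highest of the group, although Pdk4 and Ucp3 were at their lowest. The part of fibre or fat content in the differences between replicates was not tested.

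Among the 6112 other genes that averaged 5 TPM or more, those whose pattern over the 20 libraries was most like that of Ucp3 were Metap2, a methionine aminopeptidase (r = 0.79), the nucleolar gene Gnl3 (0.79) and Sqstm1, an autophagy receptor (0.77). All 3 were less like Ucp3 than Pdk4 was. As deviations from the group means their r with Ucp3 was 0.74, 0.28 and 0.49. For Pdk4, singled out after its values were seen, the nearest were Cat, which encodes catalase (r = 0.81), Lrrc2 (0.80) and Acsl1, a long-chain acyl-CoA synthetase (0.80). Their r with Pdk4 as deviations from the group means was 0.70, 0.61 and 0.69.

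Of the genes for fatty acid uptake, Cd36 showed the clearest pattern. It encodes the fatty acid translocase of the cell membrane, found on muscle fibres, capillary endothelium, adipocytes and macrophages. It stood at 78.9, 79.0 and 89.0 TPM in sedentary muscle, at 74.4, 71.4 and 79.6 TPM in untrained muscle at 6 h, and at 129, 102 and 98.1 TPM in trained muscle at 6 h. All 3 trained 6 h libraries lay above every other library of the series, and the other 6 groups overlapped one another, with means from 75.1 to 82.3 TPM. Trained minus untrained muscle at 6 h was 0.53 on the log2 scale (SE 0.0954; 95% interval 0.33 to 0.74; adjusted p = 0.00359 in limma), and trained minus sedentary 0.40 (0.20 to 0.61; adjusted p = 0.0128). Both had an adjusted p below the threshold and a size below 1.5-fold, so Cd36 was not called.

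The Cd36 difference kept its direction in every alternative tried. Without trained 6 h replicate 1, its highest library, trained minus untrained muscle at 6 h was 0.41 (adjusted p = 0.0146) and trained minus sedentary 0.28 (adjusted p = 0.0635). In a model of these groups alone the adjusted p was 0.206 and 0.144. After rescaling the TPM without mitochondrial-genome genes and the 10 other most abundant genes, the first difference was 0.62 (adjusted p = 0.00146), past 1.5-fold.

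The cell types that also make Cd36 were followed through their markers. Over all tested genes, 2.01% were called between trained and untrained muscle at 6 h. The summed level of 7 endothelial genes lay between 61.6 and 77.7 TPM in the trained and 54.6 and 63.9 TPM in the untrained libraries of 6 h, with 0 of 7 called between them. All 7 had a positive difference, trained minus untrained (median log2 0.10, against −0.04 over all tested genes). Of the 6 macrophage genes 5 were tested, and 2 (Cd68 and Csf1r) were called lower in the trained libraries of 6 h, with sums of 14.66 to 19.97 TPM against 19.34 to 40.65 TPM. All 5 macrophage genes had a negative difference (median log2 −0.65). The adipocyte sum lay between 35.6 and 92.6 TPM in trained and between 24.5 and 108 TPM in untrained muscle, with 0 of 5 tested genes called. All 5 adipocyte genes had a positive difference (median log2 0.49). Adipoq, the adipokine that defines fat cells, was at 10.6, 2.94 and 8.24 TPM in the trained and at 2.29, 4.38 and 11.3 TPM in the untrained libraries, an overlapping range. No marker of these lists was at 0 in every library, and their part in the Cd36 difference was not tested. Slow fibres, which take up much fatty acid, were followed as well. All 7 slow-fibre genes had a positive difference between the trained and untrained libraries of 6 h (median log2 1.26), with sums of 395 to 1184 TPM against 264 to 404 TPM. Of these Myl2, a slow myosin light chain, was called, at 492, 138 and 224 TPM against 96.7, 107 and 77.4 TPM. Mb, the oxygen store of oxidative fibres and a gene of the skeletal muscle list, was called too (log2 0.73). The part of fibre content in the Cd36 difference was not tested.

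Lpl encodes lipoprotein lipase, which frees fatty acids from circulating triglyceride at the capillary wall. It stood at 78.8, 89.7 and 111 TPM in sedentary muscle, at 80.9, 66.2 and 71.1 TPM in untrained muscle at 6 h, and at 118, 103 and 93.6 TPM in trained muscle at 6 h. The trained and untrained libraries at 6 h did not overlap, and both overlapped the sedentary ones. Trained minus untrained muscle was 0.53 on the log2 scale (95% interval 0.22 to 0.84), with an adjusted p of 0.0517 in limma. The adjusted p fell on the other side of the threshold in several alternatives, at 0.033 without untrained 6 h replicate 1, 0.0313 with median-of-ratios scaling and 0.0192 with the rescaled TPM. Untrained minus sedentary muscle at 6 h was −0.34 (−0.65 to −0.03; adjusted p = 0.172) and trained minus sedentary 0.18 (−0.13 to 0.49; adjusted p = 0.489).

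Fabp3, the cytosolic fatty acid carrier of heart and oxidative muscle, was the most abundant member. It stood at 446, 474 and 542 TPM in sedentary muscle, at 764, 562 and 437 TPM in trained muscle at 6 h, and at 295, 342 and 308 TPM in trained muscle at 72 h. The trained 72 h libraries lay below all libraries of sedentary muscle and of untrained muscle at 72 h (442, 453 and 385 TPM). Neither difference passed, at −0.63 on the log2 scale against sedentary muscle (95% interval −1.04 to −0.21; adjusted p = 0.198) and −0.44 against untrained muscle at 72 h (−0.85 to −0.02; adjusted p = 0.306). Fabp3 overlaps Zcchc17 on the opposite strand (GRCm39, chromosome 4, 130202388 to 130209259 for Fabp3), where reads cannot be assigned by strand.

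Slow-fibre and clock genes were read in the same libraries. The summed slow-fibre level lay between 562 and 1084 TPM in sedentary muscle and between 288 and 447 TPM in trained muscle at 72 h, where all 7 genes had a negative difference and 0 were called. In untrained muscle at 6 h the slow-fibre sum was as low (264 to 404 TPM), with Myl2 and Myl3 called lower, beside 4.42% of all tested genes. Fabp3 overlapped sedentary muscle there (335 to 538 TPM). Of 13 tested genes of the circadian clock, 2 were called in trained muscle at 72 h against sedentary, beside 0.169% of all tested genes. Arntl, a core activator, stood at 3.13, 1.86 and 1.89 TPM against 6.62, 9.20 and 9.02 TPM in sedentary muscle. Per1, a core repressor named here after its values were seen, stood at 6.07, 9.28 and 9.06 TPM against 2.11, 1.19 and 2.73 TPM. Between trained and untrained muscle 3 of the 13 were called at 72 h (Arntl lower, Per1 and Ciart higher), beside 0.245% of all tested genes. At 6 h 1 was called (Nr1d1 lower), beside 2.01%. Ciart and Nr1d1, further clock genes, were also named after their values were seen. The part of fibre content or time of day in the Fabp3 values, or in the other differences between trained and untrained muscle, was not tested.

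Of 11 fatty acid uptake genes outside the 10, all tested, 2 were called higher in trained muscle at 0 h and 2 at 6 h, beside 3.74% and 3.85% of all tested genes called, and 1 in untrained muscle at 6 h (4.42%). Gpihbp1, the endothelial protein that anchors lipoprotein lipase to the capillary wall, rose from 19.4 ± 3.37 TPM in sedentary muscle to 30.1 ± 3.55 TPM at 0 h after training, and at 6 h to 29.5 ± 3.32 TPM without and 29.6 ± 3.44 TPM with training (SD, n = 3 each). These are log2 differences of 0.63, 0.60 and 0.60 (adjusted p = 0.00693, 0.00860 and 0.00838 in limma), close to the 1.5-fold threshold. In untrained muscle at 0 h Gpihbp1 stood at 27.3 ± 2.89 TPM and was not called. Acsl3, an acyl-CoA synthetase, rose in trained muscle at 0 h (log2 0.73, adjusted p = 0.0270) and 6 h (0.73, adjusted p = 0.0250). Untrained muscle held 8.15 ± 0.15 TPM of Acsl3 at 0 h and 7.79 ± 1.82 TPM at 6 h, against 5.13 ± 0.37 TPM in sedentary muscle, without a call. In a model of the compared groups alone these calls were lost (adjusted p 0.101 to 0.143 for Gpihbp1, 0.0659 and 0.133 for Acsl3 in limma). Without the shared library the 0 h call in trained muscle was lost for Acsl3 (adjusted p = 0.0627) and kept for Gpihbp1 (adjusted p = 0.0281). None of the 11 was called at 72 h or between trained and untrained muscle.

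Inside the mitochondria, Cpt1b and Acadm differed little between groups. Cpt1b, the muscle carnitine palmitoyltransferase that lets long-chain fatty acids into mitochondria, had group means from 87.1 ± 11.9 TPM (untrained 6 h) to 103 ± 10.4 TPM (trained 6 h), against 98.9 ± 0.57 TPM in sedentary muscle (SD, n = 3). Its largest difference was 0.24 on the log2 scale, trained minus untrained muscle at 6 h (95% interval 0.03 to 0.45; adjusted p = 0.206). Each of its 9 intervals stayed within 1.5-fold in both directions. Cpt1b overlaps the gene model Gm44502 on the same strand, and reads may have been split between them.

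Acadm, the medium-chain acyl-CoA dehydrogenase of beta-oxidation, stood at 194, 200 and 231 TPM in sedentary muscle and at 159, 168 and 167 TPM in untrained muscle at 6 h, with no overlap. The difference was −0.33 on the log2 scale (95% interval −0.54 to −0.12; adjusted p = 0.0434 in limma), below 1.5-fold. The adjusted p was above 0.05 in 9 of 15 alternatives, and 0.165 without sedentary replicate 3. In trained muscle at 6 h Acadm stood at 213, 179 and 161 TPM, and trained minus untrained muscle was 0.15 (−0.05 to 0.36; adjusted p = 0.439).

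Of 25 further genes of fatty acid oxidation and related PPAR targets, 23 were tested. Slc25a34, a member of the mitochondrial carrier family, was the 1 gene called in any comparison. The calls were in trained muscle at 6 h, against sedentary (beside 3.85% of all tested genes) and against untrained muscle (beside 2.01%). With 23 genes, 1 call is close to these shares. Slc25a34 stood at 11.2, 9.85 and 4.81 TPM in trained muscle at 6 h against 3.50, 3.98 and 4.68 TPM in sedentary and 3.76, 2.56 and 2.45 TPM in untrained muscle. It rose against sedentary muscle (log2 0.93, adjusted p = 0.0396) and was higher than in untrained muscle (1.36, adjusted p = 0.00878), although its lowest trained library was barely above the highest sedentary one. In a model of the compared groups alone both calls were lost (adjusted p = 0.182 and 0.240 in limma). The median of the 23 was −0.11 in untrained and 0.11 in trained muscle at 6 h on the log2 scale.

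Plin2 coats lipid droplets and is a PPAR target in many tissues. It stood at 16.4, 20.3 and 17.5 TPM in sedentary muscle and at 25.7, 21.7 and 27.4 TPM in trained muscle at 0 h, where all 3 libraries lay above the sedentary ones. The difference was 0.45 on the log2 scale (95% interval 0.14 to 0.77; adjusted p = 0.0668). In untrained muscle at 0 h it stood at 25.7, 19.1 and 22.2 TPM (0.29, −0.02 to 0.61; adjusted p = 0.240), the first value being the shared library. Without that library the trained mean was 24.6 TPM and the untrained mean 20.6 TPM. At 6 h and 72 h Plin2 overlapped the sedentary range in all 4 groups, with means from 17.7 to 19.9 TPM.

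Of 11 other droplet genes, all tested, 4 were called higher and 0 lower in trained muscle at 6 h, beside 3.85% of all tested genes called. G0s2, an inhibitor of the lipase that starts triglyceride breakdown, stood at 19.1, 19.5 and 21.1 TPM there, against 4.63, 5.79 and 8.15 TPM in sedentary and 7.37, 8.36 and 6.91 TPM in untrained muscle at 6 h. It rose against sedentary muscle (log2 1.64, adjusted p = 0.00191) and was higher than in untrained muscle (1.34, adjusted p = 0.0134). Plin5, the perilipin that ties droplets to mitochondria, rose as well (1.09, adjusted p = 0.0161), from 6.14 ± 0.77 to 14.1 ± 4.71 TPM. In a model of trained 6 h and sedentary muscle alone the Plin5 call was lost (adjusted p = 0.0906 in limma).

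The other calls in trained muscle at 6 h, Plin4 (log2 1.01, adjusted p = 3.52e-04) and Plin3 (0.61, adjusted p = 0.00817), encode further droplet coats. Plin3 was also higher in trained than in untrained muscle (0.62, adjusted p = 0.0133), and Plin4 rose in untrained muscle at 6 h too (0.79, adjusted p = 0.00160), with no call between the states (0.22, adjusted p = 0.427). G0s2 rose at 0 h in untrained muscle (1.46, adjusted p = 0.00493) and in trained muscle (1.14, adjusted p = 0.0215), and Hilpda, a droplet gene known from low oxygen, in trained muscle (0.61, adjusted p = 0.0178). Both 0 h groups of G0s2 hold the shared library at 21.1 TPM, and without it the trained difference was 0.85 (adjusted p = 0.105).

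The receptors and coregulators that act on the 10 genes were a list of 13, all tested. At 6 h the calls named here were all rises. Ppargc1a, the coactivator PGC-1alpha, stood at 3.04, 4.30 and 4.34 TPM in sedentary muscle, at 22.3, 33.1 and 25.9 TPM in untrained and at 48.6, 29.1 and 39.2 TPM in trained muscle at 6 h. It rose in untrained (log2 2.65, adjusted p = 2.78e-07) and trained muscle (3.15, adjusted p = 3.97e-07). In both states Nrip1, a corepressor, rose too (1.03 and 0.73, adjusted p = 0.00564 and 0.0414), as did Lpin1, a coactivator with lipid phosphatase activity (0.67 and 0.91, adjusted p = 4.65e-05 and 1.36e-05).

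Ppara, the receptor PPARalpha, was the 1 gene of the list called between the states. It stood at 1.45, 1.73 and 1.95 TPM in sedentary, 1.51, 0.94 and 1.99 TPM in untrained and 5.09, 3.74 and 5.65 TPM in trained muscle at 6 h, the trained libraries lying above every other library of the 3 groups. It rose against sedentary muscle (log2 1.26, 95% interval 0.77 to 1.75, adjusted p = 0.00244 in limma) and was higher than in untrained muscle (1.45, 0.96 to 1.94, adjusted p = 0.00164). In a model of these groups alone the second had an adjusted p of 0.152. Of the members, Pdk4 and Ucp3 had their highest group mean in TPM in untrained muscle at 6 h, and Angptl4, Cpt1b, Cd36, Lpl and Fabp3 in trained muscle at 6 h. Pdk2 and Plin2 had theirs in trained muscle at 0 h and Acadm in sedentary muscle. For Angptl4 the mean was 3.72 TPM in trained muscle at 6 h, with 1 library at 9.04 TPM, and 3.68 TPM in untrained muscle. On the log2 scale its trained 6 h mean (1.45) lay below those of untrained 6 h (1.99) and sedentary muscle (1.58). Between the states at 6 h neither Pdk4 nor Ucp3 passed (adjusted p = 0.469 and 0.381 in limma).

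**Figure D4:**
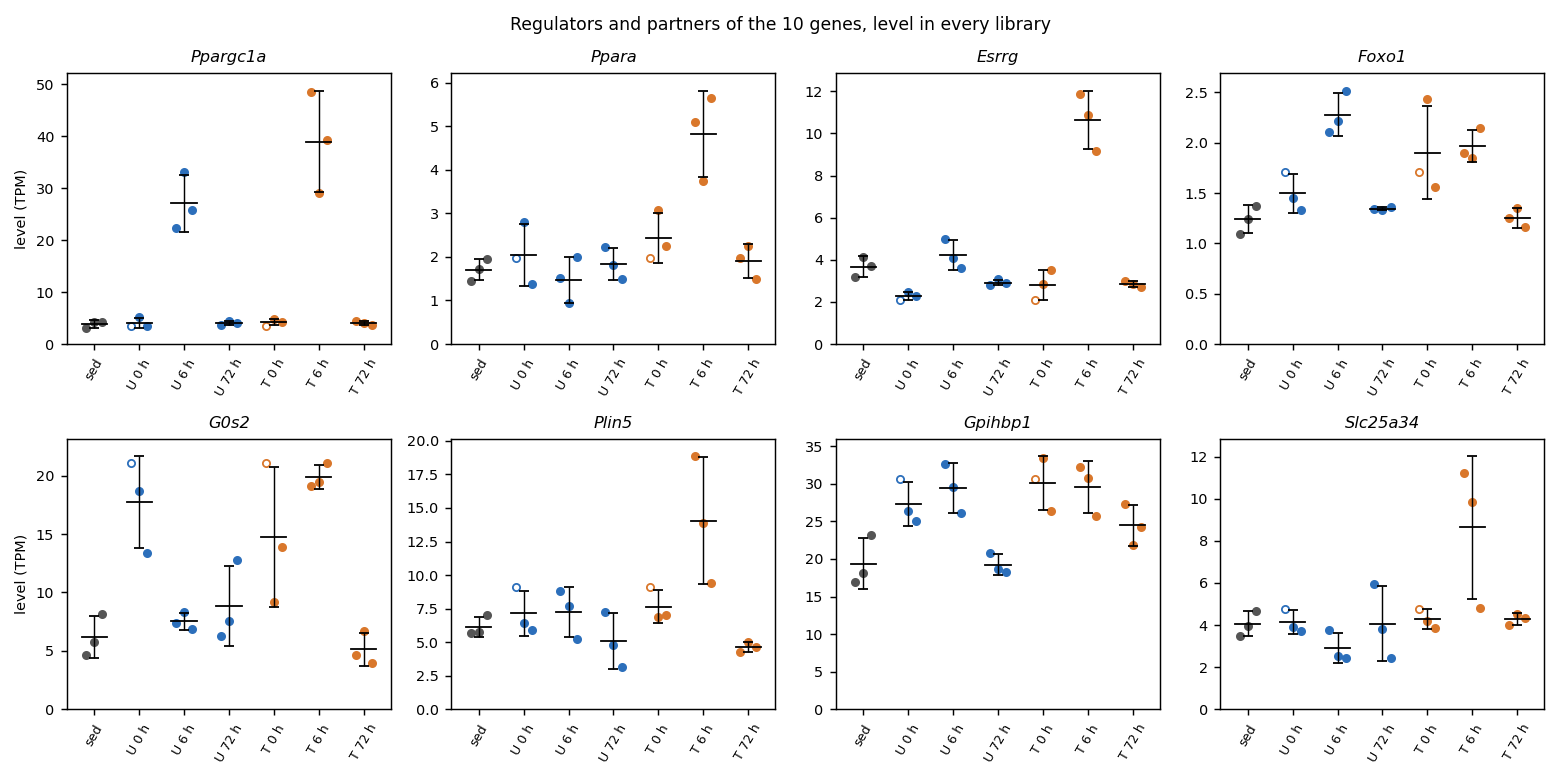
Level in TPM (linear axes) of 8 regulators and partners of the 10 genes in every library, drawn as for the members. Ppargc1a is raised in both 6 h groups, while Ppara, Esrrg and Slc25a34 are raised at 6 h in trained muscle (Slc25a34 in 2 libraries) and G0s2 at 0 h in both states and at 6 h in trained muscle.

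Other transcription factors known to act on Pdk4 were a list of 8, all tested. Cebpb, an early-response factor, rose from 4.42 ± 0.63 TPM in sedentary muscle to 17.8 ± 4.27 TPM at 0 h without training (log2 1.87, adjusted p = 1.88e-05) and 21.2 ± 3.58 TPM with it (2.13, adjusted p = 5.58e-06), and was still higher in untrained muscle at 6 h (0.91, adjusted p = 0.0105) and in trained muscle at that time (7.73 ± 0.78 TPM, 0.74, adjusted p = 0.03). Trained minus untrained at 6 h was −0.16 for Cebpb (adjusted p = 0.749). Foxo1, the forkhead factor of fasting, rose in untrained muscle at 6 h, from 1.24 ± 0.14 to 2.28 ± 0.21 TPM (0.67, adjusted p = 0.00136). With training it stood at 1.97 ± 0.16 TPM at that time (0.50, adjusted p = 0.0114, below 1.5-fold), and trained minus untrained was −0.17 (adjusted p = 0.473). Esrrg, an oestrogen-related receptor of oxidative muscle, stood at 3.18, 4.14 and 3.70 TPM in sedentary, 5.01, 4.07 and 3.60 TPM in untrained and 11.9, 10.9 and 9.15 TPM in trained muscle at 6 h.

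Esrrg rose in trained muscle at 6 h (log2 1.41, adjusted p = 3.10e-05 in limma) and was higher there than in untrained muscle (1.24, adjusted p = 9.18e-05), as was its relative Esrrb (0.80 against sedentary, adjusted p = 4.69e-04, and 0.91 against untrained muscle, adjusted p = 2.61e-04). At 0 h Esrrg fell in untrained muscle (−0.59, adjusted p = 0.0178), just past 1.5-fold and not without the shared library (−0.54, adjusted p = 0.0347). None of the 6 lists had a called gene at 72 h or between trained and untrained muscle at 0 h, where 0 of all tested genes were called and 143 had an unadjusted p below 0.05. The 0 h comparison of the states shares 1 library in both groups, which holds its differences towards 0.

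Scaling moved the median over all tested genes most at 0 h. The median over all tested genes was 0.10 in untrained and 0.13 in trained muscle against sedentary on the log2 scale, and median-of-ratios scaling moved it by −0.11 and −0.14. Of the list genes called in trained muscle at 0 h, Nrip1, Acsl3, Gpihbp1, G0s2 and Hilpda lost the call after that scaling (adjusted p 0.0527 to 0.142), and Cebpb kept it. For the 10 members, no count of calls at 0 h changed with scaling, while Cd36 and Lpl were called between trained and untrained muscle at 6 h with the rescaled TPM. That rescaling moved the share of rises among all calls of this 6 h comparison from 27.7% to 47.8%. In trained muscle at 72 h against sedentary the share went from 35% to 71.1%.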

How the data were processed

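RNA from whole quadriceps muscle was sequenced with an unstranded kit (TruSeq v2). The authors mapped the reads to GRCm39 with STAR 2.7.9, quantified them with Salmon 1.5.0 and deposited 1 table of TPM values per gene symbol. The annotation release is not given in the sources used here. TPM carries no read counts, so depth is unknown and precision can be judged only from the 3 libraries in each group. All 21 columns matched a sample.

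TPM values were transformed to log2(TPM + 0.5), and symbols averaging 1 TPM or more were fitted with limma 3.58.1 (R 4.3.3), with a variance trend, 7 group means and 14 residual degrees of freedom, after a check on simulated data. In all, 6 comparisons with sedentary muscle and 3 between trained and untrained muscle were made, with p-values adjusted within each by Benjamini-Hochberg. The study's thresholds were used. Alternatives changed the pseudocount, filter, scaling, fold threshold, libraries, model or replicate block.

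The 10 genes and all lists were chosen with earlier results of these data known. Besides the 10, a list gene is named where it was called and its groups did not overlap (at most the 2 largest rises and falls a comparison), with 3 pattern neighbours of each called member and the first 2 markers of a reported list. Other names were chosen after their values were seen: Pdk1, Pdk3, the neighbours of Pdk4, Per1, Ciart, Nr1d1, Lpin1, Nrip1 at 6 h in trained muscle, Plin3 and Plin4 at 6 h in trained muscle, the remaining members of the marker lists, and Pdp1, Pdp2, Pdpr, Mpc1 and Mpc2. Some results of the receptor and coregulator list are not reported here. Promoters came from the RefSeq table (GRCm38.p6) and gene positions from the GENCODE annotation of GRCm39. Plots were made with matplotlib 3.10.9.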

Additional observations from a re-analysis of the deposited data

Results flagged for a closer look

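At 6 h after the bout, a direct test of trained against untrained muscle (limma, adjusted p below 0.05) passed for 10 genes among the members and the pathway lists. They were 1 of 10 members, 1 of 10 tested pyruvate dehydrogenase genes, 1 of 13 receptors and coregulators and 2 of 8 other factors. The rest were 1 of 11 uptake, 2 of 11 droplet and 2 of 23 oxidation genes. The share of all tested genes at this adjusted p alone is not given here. In the same comparison 2166 of the 11819 tested genes had an unadjusted p below 0.05 in limma. Each gene is given as trained minus untrained on the log2(TPM + 0.5) scale. Cd36, the 1 member of the 10, differed by 0.53 and stayed below 1.5-fold. The receptor Ppara differed by 1.45, and the oestrogen-related receptors Esrrg and Esrrb by 1.24 and 0.91. The droplet genes G0s2 and Plin3 differed by 1.34 and 0.62, and the mitochondrial carrier Slc25a34 by 1.36. The 6 genes after Cd36 were called at 1.5-fold or more, beside 2.01% of all tested genes. Below 1.5-fold lay Cpt2, Got2 and Pdha1, named here after their values were seen, with 0.36, 0.25 and 0.21. All 10 were higher in trained muscle, with 3 of 3 trained libraries above every untrained library of that time. Genes picked by a small p tend to show such a separation, so it adds no support. The 7 slow-fibre genes also had positive differences there (median 1.26, with Myl2 called), and the part of fibre content in these differences was not tested. In a model of the 6 h groups alone, of Cd36 and the 6 called genes, G0s2 was the 1 that kept an adjusted p below 0.05.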

How the results depend on the processing

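Of 138 counts of called members under the alternatives, 127 stayed within 1.5 times the reported count and 11 did not. In untrained muscle at 6 h against sedentary the count of 1 (Ucp3) was 0 without a filter on low values (adjusted p = 0.0572 for Ucp3 in limma), 0 with only these groups in the model, 2 without a fold threshold (Ucp3 and Acadm) and 0 to 1 when libraries were left out in turn. It was 0 without sedentary replicate 3, untrained 6 h replicate 2 or untrained 6 h replicate 3. In trained muscle at 6 h against sedentary the count of 0 was 1 without a fold threshold (Cd36). Between trained and untrained muscle at 6 h the count of 0 was 2 after rescaling without mitochondrial-genome genes and the 10 other most abundant genes (Cd36 and Lpl), 1 without a fold threshold (Cd36), and 0 to 1 when libraries were left out (Lpl without untrained 6 h replicate 1, Cd36 without trained 6 h replicate 3). Of 1371 values of single members, 5 lost and 7 gained a call and 0 called values reversed, while 109 that were not called changed sign. Angptl4 has no value with a mean of 5 TPM as the filter.

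With the replicate number as a block the count in untrained muscle at 6 h stayed at 1 and those of the other 8 comparisons at 0. Deviations of same-numbered libraries from their group means correlated at −0.07 to 0.10, apart from trained and untrained muscle at 0 h (0.69, 0.13 and 0.13), where the first pair is 1 library, so the numbers were not taken to pair the samples.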
